A study of Equus caballus with 15 samples.

Results

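Complement is a cascade of plasma proteins and cell surface receptors that marks targets for uptake and calls in leukocytes. The classical arm opens when C1q, built from A, B and C chains, binds a target and its partner proteases C1r and C1s then cleave C4 and C2. The alternative arm amplifies deposition of C3 through factor B and is stabilized by properdin, and the fragments C3a and C5a signal through their own receptors on myeloid cells. Macrophages are a known source of C1q and properdin outside the liver. The genes described here are the components and receptors C1QA, C1QB, C1QC, C2, C3, CFB, CFP, C3AR1 and C5AR1, taken by their gene symbols. Of these 9 genes, 7 were among the 16932 genes with values, and C1QA and C3 were not analysed here.

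Macrophages were grown for 5 days with 30 ng/ml of the growth factor M-CSF from blood mononuclear cells of 2 donor geldings, whose ages were 3 and 5 years. Polyadenylated RNA of 5 conditions was read out, with 3 libraries in each. The untreated cultures received neither IL-1ß nor a therapy, while IL-1ß at 10 ng/ml was present for 24 h in all others. In 3 of these, an orthobiologic therapy (OT) made up 25% of the medium over the same time. The OTs were conditioned medium of bone marrow mesenchymal stromal cells (MSC-CM), a lysate made by freezing platelet rich plasma (PRP lysate), and ACS, an autologous conditioned serum, which is incubated to enrich antagonists of IL-1. Each OT came from 3 donor horses aged 2 to 5 years that did not donate the macrophages, so these libraries replicate the product, whereas the IL-1ß and untreated libraries were technical replicates. All p-values therefore measure the spread between these libraries and not that between macrophage donors. The study's methods give 24 h of further culture after the washes, which the sample descriptions do not mention. No medium control for plasma or serum was analysed here, and the labels do not say which horse gave which macrophages.

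Levels are given as CPM, the read count of a gene scaled to the same total in every library. The libraries held 28410735 to 47894072 counted reads, and each of the 7 genes had at least 21 reads in every library. Because CPM ignores gene length, levels were compared between conditions and not between genes. A gene was called when limma gave a Benjamini-Hochberg adjusted p of at most 0.05 over 11628 genes (mean level 1 CPM or higher) and a fold change of at least 2. All 7 complement genes entered this test. Fold changes are differences of mean log2(CPM + 1), which shrinks them for genes with few CPM such as C1QB and C1QC.

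The cells were checked against marker genes before the complement genes were compared. All 12 macrophage markers were detected, with CD68 at 1340 to 2157 CPM, but CD14 reached only 1.38 to 4.32 CPM and LYZ 1.13 to 15.8 CPM. Markers of T cells were also present, since 6 of them summed to 595 to 1696 CPM. So were markers of NK cells, of which 5 summed to 210 to 1065 CPM, while 3 listed hepatocyte markers summed to at most 1.07 CPM. IL-1ß replicate 3 and PRP lysate replicate 1 stood apart on the first principal component of all tested genes, which held 55.4% of the variance, at scores of -103 and -51.7 against -20.7 to 26.6 for the rest. These same libraries had the highest T cell marker sums, 1652 and 1696 CPM. Results that rest on them are given with and without them.

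**Figure D1:**
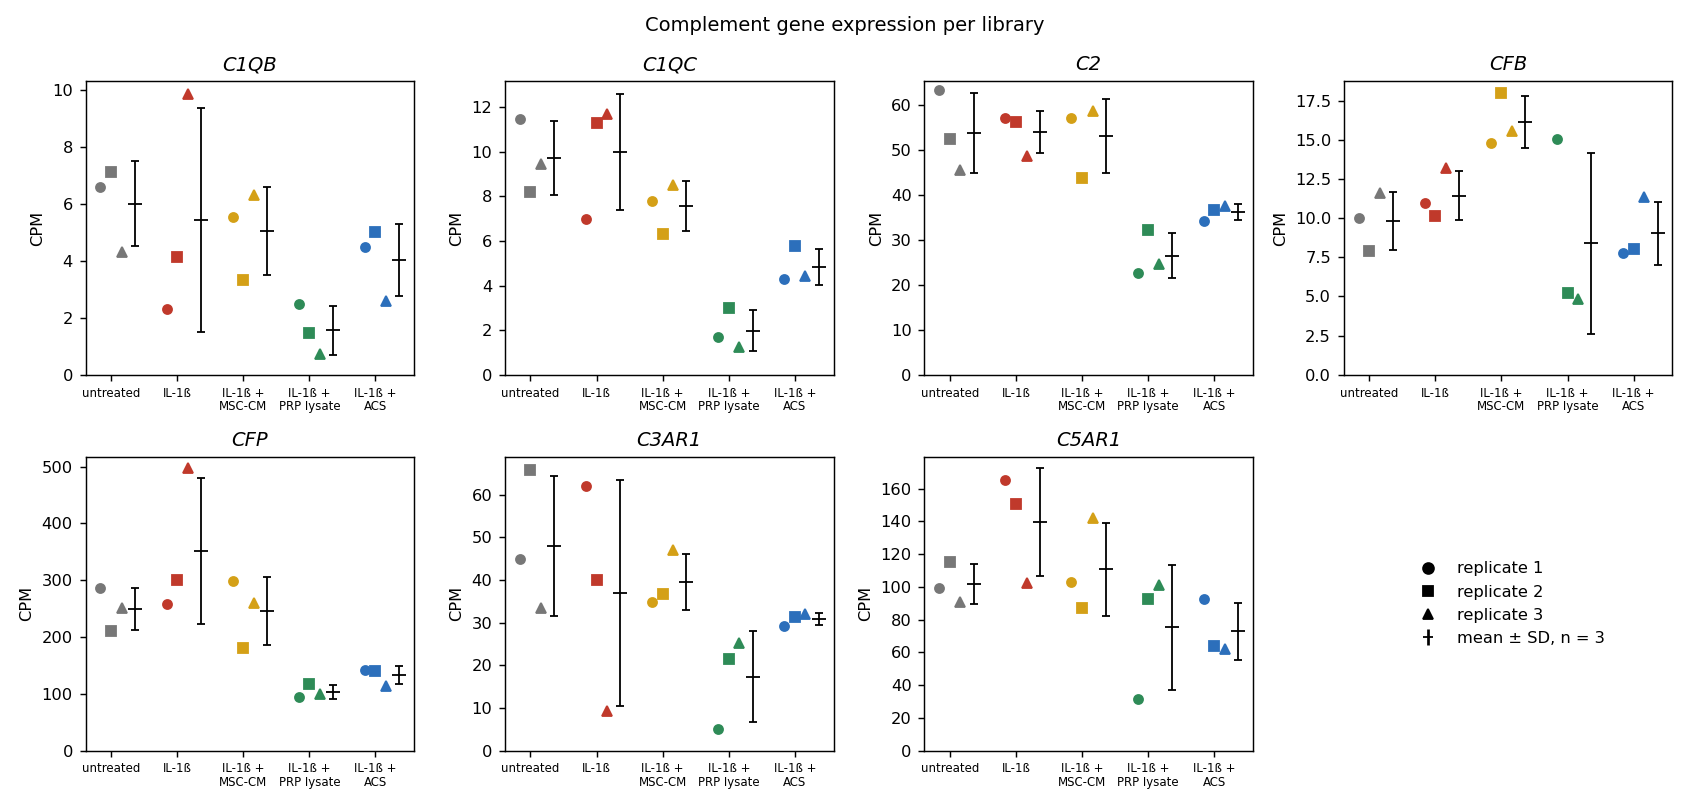
Level of each of the 7 complement genes in CPM (linear vertical axes from 0) in every library of the 5 conditions. Symbols are libraries (circle, square and triangle for replicates 1, 2 and 3), and the bar beside them is the mean with SD (n = 3). C1QC, C2 and CFP lay lower in all 3 PRP lysate libraries than in any IL-1ß library, whereas C3AR1 was spread from 9.20 to 62.0 CPM within the IL-1ß libraries alone.

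C1QB and C1QC encode chains of C1q, the recognition molecule of the classical arm. The genes lie side by side on chromosome 2 of EquCab3.0, C1QB (ENSECAG00000019868) at 32217883 to 32224715 and C1QC (ENSECAG00000020325) at 32228161 to 32238118. C1QC measured 11.5, 8.19 and 9.47 CPM in untreated macrophages and 7.005, 11.3 and 11.7 CPM with IL-1ß alone. It measured 7.81, 6.33 and 8.52 CPM with MSC-CM, 4.28, 5.77 and 4.45 CPM with ACS, and 1.72, 3.01 and 1.23 CPM with PRP lysate. The PRP lysate libraries were thus the lowest without overlap, and the ACS libraries lay between them and all others. The order of the means was IL-1ß (10.0 ± 2.60 CPM, SD, n = 3), untreated (9.71 ± 1.65), MSC-CM (7.55 ± 1.12), ACS (4.83 ± 0.814) and PRP lysate (1.99 ± 0.920). No pair of neighbors in that order differed by limma, the lowest adjusted p being 0.263 for PRP lysate against ACS.

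On average C1QB had the fewest reads of the 7 genes, 21 to 285 per library. C1QC had fewer than C1QB in PRP lysate replicate 1 (64 against 92) and ACS replicate 1 (157 against 164). It measured 6.59, 7.12 and 4.33 CPM in untreated macrophages, 2.31, 4.15 and 9.85 CPM with IL-1ß alone, 5.53, 3.32 and 6.32 CPM with MSC-CM, 2.47, 1.48 and 0.739 CPM with PRP lysate, and 4.47, 5.004 and 2.61 CPM with ACS. The IL-1ß libraries spanned the levels of the untreated, MSC-CM and ACS libraries. PRP lysate replicates 2 and 3 lay below every IL-1ß library, and replicate 1 lay above the lowest of them. The ratio of C1QC to C1QB reads was 1.69 ± 0.521 (SD, n = 3) in untreated macrophages and 1.46 ± 0.691 with PRP lysate. Both C1q chains were thus lowest with PRP lysate, in a ratio whose ranges overlapped.

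C2 is the protease subunit that joins C4b in the classical C3 convertase, and CFB encodes factor B, its counterpart in the alternative convertase. Their genes are neighbors on chromosome 20, with C2 (ENSECAG00000004709) at 32489298 to 32529006 and CFB (ENSECAG00000011854) at 32528554 to 32535443. The annotated spans overlap by 452 bases, and the strand setting of the counting is not given in the sources used here, so reads in the overlap cannot be assigned with certainty. C2 measured 63.3, 52.4 and 45.6 CPM in untreated macrophages and 57.1, 56.2 and 48.6 CPM with IL-1ß alone. It measured 57.05, 43.7 and 58.7 CPM with MSC-CM, 34.3, 36.7 and 37.6 CPM with ACS, and 22.6, 32.2 and 24.7 CPM with PRP lysate. Untreated, IL-1ß and MSC-CM means lay within 53.2 to 54.0 CPM, and ACS (36.2 ± 1.73, SD, n = 3) and PRP lysate (26.5 ± 5.02) followed without overlap.

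CFB had a different order from its neighbor. It measured 10.0, 7.90 and 11.6 CPM in untreated macrophages, 11.0, 10.1 and 13.2 CPM with IL-1ß alone, 14.8, 18.0 and 15.6 CPM with MSC-CM, 15.1, 5.24 and 4.86 CPM with PRP lysate, and 7.75, 8.01 and 11.4 CPM with ACS. The MSC-CM libraries were higher than all untreated, IL-1ß and ACS libraries, and PRP lysate replicate 1 lay far above the other libraries of its group. The ratio of C2 to CFB reads ranged from 1.499 to 6.63 over the 15 libraries, with the lowest ratio in PRP lysate replicate 1, and from 2.43 to 6.63 without that library.

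CFP encodes properdin, the positive regulator of the alternative arm, and lies on chromosome X at 40071185 to 40076824 (ENSECAG00000017644). On average it had the most reads of the 7 genes, 2810 to 14378 per library, although C5AR1 had more in PRP lysate replicate 3 (2882 against 2810). CFP measured 286, 211 and 251 CPM in untreated macrophages and 257, 300 and 497 CPM with IL-1ß alone. It measured 298, 180 and 260 CPM with MSC-CM, 142, 141 and 114 CPM with ACS, and 94.3, 118 and 98.9 CPM with PRP lysate. Both blood products were below every other library, and their own ranges overlapped between 114 and 118 CPM. The highest value, 497 CPM, belonged to IL-1ß replicate 3.

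C3AR1 and C5AR1 encode the receptors of the anaphylatoxins C3a and C5a. C3AR1 (ENSECAG00000003106, chromosome 6 at 36415233 to 36416688) measured 44.8, 65.8 and 33.5 CPM in untreated macrophages, 62.0, 39.9 and 9.20 CPM with IL-1ß alone, 34.9, 36.7 and 47.1 CPM with MSC-CM, 5.13, 21.5 and 25.1 CPM with PRP lysate, and 29.3, 31.3 and 32.1 CPM with ACS. Its lowest values in the study were in the 2 libraries that stood apart. Pearson's r of C3AR1 with the first principal component was 0.71 over the 15 libraries, against -0.48 to 0.22 for the other 6 genes, which describes these libraries and is not a test. C5AR1 (ENSECAG00000006153, chromosome 10 at 17645549 to 17647766) measured 99.4, 115 and 90.7 CPM in untreated macrophages, 165, 151 and 102 CPM with IL-1ß alone, 103, 86.9 and 142 CPM with MSC-CM, 31.7, 92.5 and 101 CPM with PRP lysate, and 92.8, 63.6 and 61.9 CPM with ACS. The lowest IL-1ß library lay just above the highest PRP lysate library, at 102.3 against 101.4 CPM.

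The question of the first comparison was whether IL-1ß alone altered these genes. None of the 7 was called by limma, edgeR or DESeq2, 0 had an unadjusted p under 0.05, and 0 had libraries that did not overlap between the groups. Over all genes, 0.292% were called in this comparison and 16.2% did not overlap. CFP differed by 0.45 on the log2 scale (95% interval -0.07 to 0.96, adjusted p = 0.447), C5AR1 by 0.43 (-0.36 to 1.22, adjusted p = 0.607) and CFB by 0.21 (-0.49 to 0.90, adjusted p = 0.76). Without IL-1ß replicate 3, CFP differed by 0.17 (adjusted p = 0.819). C3AR1 differed by -0.67 (-1.98 to 0.64, adjusted p = 0.626), and without IL-1ß replicate 3 by 0.10. The means of C1QC and C2 differed by less than the SD of either group. Over all libraries, the intervals leave room for an increase of almost 2-fold in CFP and of more than 2-fold in C5AR1.

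MSC-CM was next set against IL-1ß alone. None of the 7 genes was called by limma, edgeR or DESeq2, and 0 had an unadjusted p under 0.05; limma called 0% of all genes here, edgeR 0 genes and DESeq2 2. CFB was the single complement gene without overlap between the groups, with all 3 MSC-CM libraries higher, at 16.1 ± 1.66 against 11.4 ± 1.57 CPM (SD, n = 3), where 7.25% of all genes were higher without overlap. Its difference was 0.46 (95% interval -0.23 to 1.16, adjusted p = 0.705). CFP differed by -0.49 (-1.004 to 0.03, adjusted p = 0.705) and by -0.21 without IL-1ß replicate 3. The other differences included C1QC at -0.34, C5AR1 at -0.33 and C3AR1 at 0.44, which became -0.33 without IL-1ß replicate 3. Against untreated macrophages, 0 of the 7 were called with MSC-CM (0.662% of all genes), by edgeR or DESeq2 as well, and 0 had an unadjusted p under 0.05. CFB was again without overlap, higher by 0.67 (adjusted p = 0.338), where 21.9% of all genes were higher without overlap. All 6 T cell markers were among those genes, with a median log2 difference of 0.83, and their part was not tested.

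PRP lysate lowered the expression of C1QC, CFP and C2 relative to IL-1ß treated controls. C1QC was 5.03-fold lower by mean CPM, with a log2 difference of -1.89 (SE 0.25, 95% interval -2.43 to -1.36, adjusted p = 0.000669 by limma). CFP was 3.39-fold lower, with a log2 difference of -1.70 (SE 0.24, -2.22 to -1.18, adjusted p = 0.00105). C2 was 2.04-fold lower, with a log2 difference of -1.01 (SE 0.17, -1.38 to -0.64, adjusted p = 0.00376). The 3 calls among 7 genes stand beside 2.02% of all genes called lower in this comparison, and the median log2 difference was -1.02 for the 7 genes and 0.11 for all genes. A recognition chain, a classical protease and the alternative arm's properdin were thus among the genes that fell. In bulk RNA, fewer cells of a type and less RNA per cell cannot be told apart.

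The other 4 genes were not called against IL-1ß alone, although each had a negative difference. C1QB differed by -1.21 (95% interval -2.08 to -0.34, adjusted p = 0.119), and C5AR1 by -1.02 (-1.81 to -0.23, adjusted p = 0.15). C3AR1 differed by -0.95 (-2.27 to 0.36, adjusted p = 0.467) and CFB by -0.56 (-1.25 to 0.13, adjusted p = 0.404). Both receptors moved with the libraries that stood apart. C3AR1 differed by -0.29 when PRP lysate replicate 1 was left out (adjusted p = 0.728) and by -1.73 when IL-1ß replicate 3 was (adjusted p = 0.0579), and C5AR1 by -0.49 and -1.23 (adjusted p = 0.235 and 0.0939). In C1QC, C2, CFP and C5AR1, all PRP lysate libraries were below all IL-1ß libraries, which held for 6.47% of all genes. C2 lay at the edge of the fold threshold: leaving out IL-1ß replicate 1 gave -0.97, IL-1ß replicate 2 gave -0.98, PRP lysate replicate 1 gave -0.91 and PRP lysate replicate 3 gave -0.97, with adjusted p of 0.0119 to 0.0205. C1QB was called without IL-1ß replicate 1 (-1.60, adjusted p = 0.0336) but differed by -0.74 without IL-1ß replicate 3 (adjusted p = 0.274). CFB was called without PRP lysate replicate 1 (-1.03, adjusted p = 0.0121) but differed by -0.35 without PRP lysate replicate 2 (adjusted p = 0.767), by -0.30 without replicate 3 (adjusted p = 0.842) and by -0.004 relative to the summed macrophage markers (adjusted p = 0.994).

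Without both libraries that stood apart, 3 genes were called against IL-1ß alone, namely C1QC (-1.73, adjusted p = 0.00232), CFP (-1.36, adjusted p = 0.00153) and C3AR1 (-1.06, adjusted p = 0.0242). C2 then differed by -0.98 (adjusted p = 0.00431), just under the fold threshold, and C5AR1 by -0.70 (adjusted p = 0.073). Over all genes, 513 were called without these libraries and 359 with them. C1QC and CFP kept their calls without each of the 6 libraries in turn. Where only the IL-1ß and PRP lysate libraries entered the fit, adjusted p rose to 0.0988 for C1QC, 0.0737 for CFP and 0.161 for C2, and 0 of the 7 genes were called, beside 56 of all genes.

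**Figure D2:**
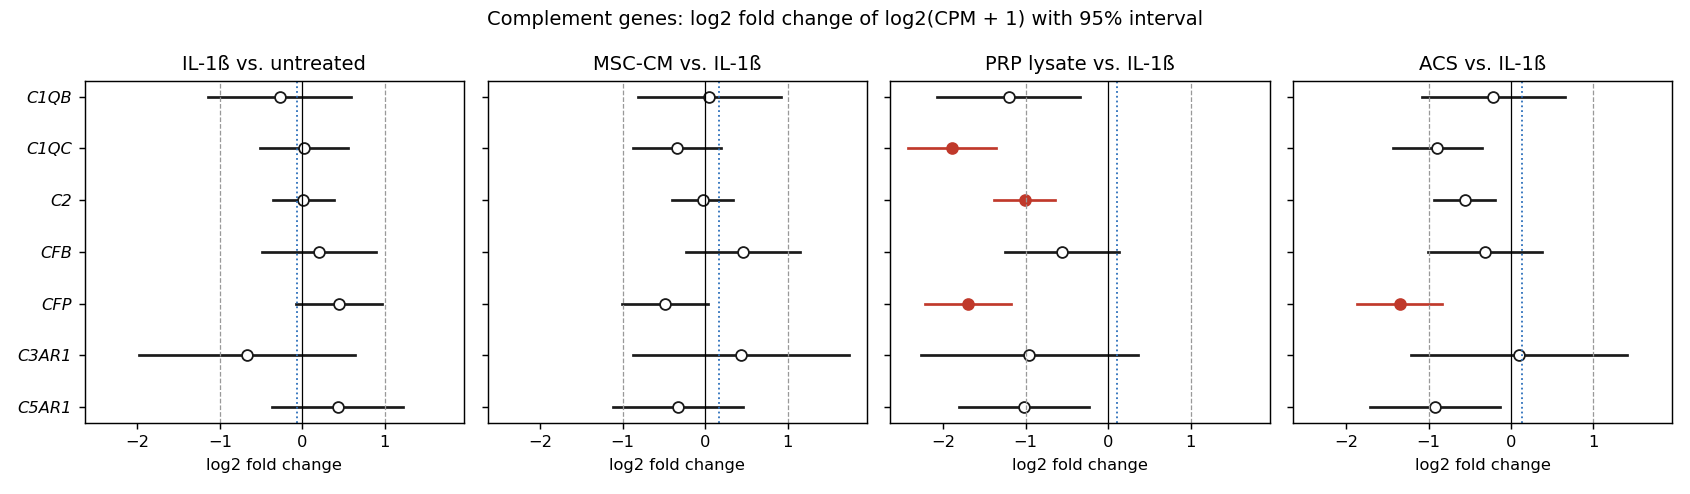
Difference of mean log2(CPM + 1) for the 7 complement genes in 4 comparisons, IL-1ß against untreated macrophages and each OT against IL-1ß (horizontal axis, log2), with the 95% interval of limma as bars. Filled red points passed the adjusted p and the fold threshold, dashed lines mark a 2-fold change and the dotted blue line is the median of all genes, which was 0.11 for PRP lysate against IL-1ß. C1QC (-1.89), CFP (-1.70) and C2 (-1.01) are filled for PRP lysate, CFP (-1.35) alone is filled for ACS, and no point is filled in the other panels.

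**Figure D3:**
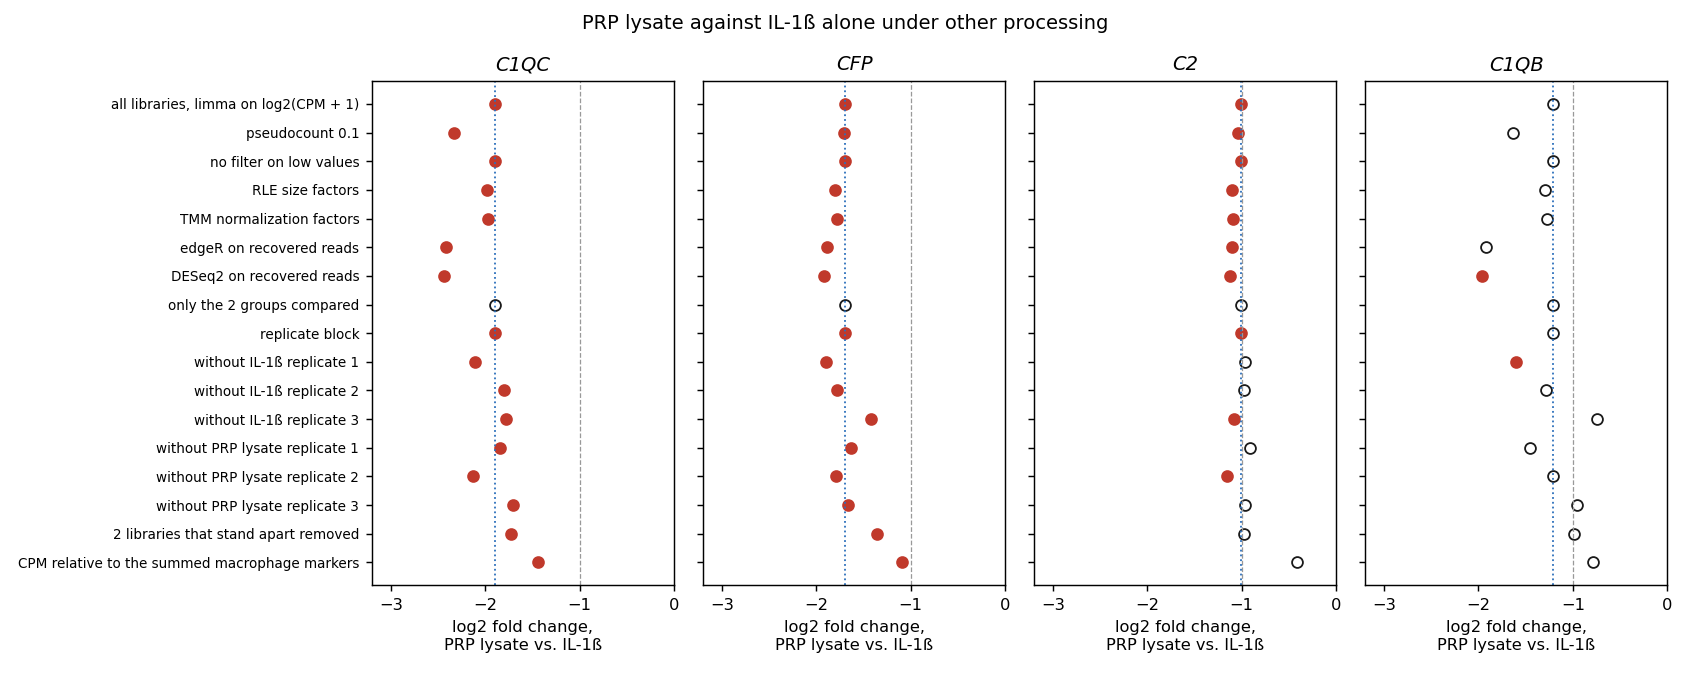
Log2 difference of PRP lysate against IL-1ß (horizontal axis) for C1QC, CFP, C2 and C1QB under the reported processing and 16 alternatives (vertical axis). Filled red points passed both thresholds, the dashed line is a 2-fold decrease and the dotted blue line is the reported value. All points lie below 0, those of C1QC and CFP lie past the dashed line throughout, and those of C2 lie close to it except at -0.42 relative to the macrophage markers.

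Macrophage markers also moved with PRP lysate. The summed level of the 12 markers was 3146 to 5234 CPM with PRP lysate and 5479 to 7876 CPM with IL-1ß alone, and 4 of the 12 were called lower. CD163, a scavenger receptor for hemoglobin, fell from 563 ± 173 to 11.4 ± 3.48 CPM (SD, n = 3), and MERTK, a receptor for apoptotic cells, fell from 53.5 ± 10.8 to 7.45 ± 1.89 CPM. CD68, a lysosomal marker of macrophages, measured 1660 ± 298 CPM with PRP lysate and 1630 ± 138 CPM in the IL-1ß controls, with a log2 difference of 0.01 (adjusted p = 0.965). The T cell marker sum overlapped, at 747 to 1696 against 831 to 1652 CPM, and 0 of its 6 genes were called by limma in this comparison. Summed levels were 12.2 to 41.4 against 11.9 to 14.2 CPM for 5 listed platelet markers, 485 to 546 against 311.4 to 391.8 CPM for 4 neutrophil markers, and 63.1 to 103 against 253 to 518 CPM for 5 endothelial markers. Most of each of these 3 sums came from 1 gene, since over all libraries CSF3R reached 759 CPM and the other neutrophil markers at most 3.81, PECAM1 reached 500.4 CPM with VWF at 0 in 11 libraries, and PPBP reached 39.1 CPM. The part of these markers in the complement result was not tested. Relative to the summed macrophage markers, C1QC (-1.44, adjusted p = 0.00743) and CFP (-1.09, adjusted p = 0.0202) were still called, whereas C2 differed by -0.42 (adjusted p = 0.145). The markers CD68 and MRC1 together made up 48.0% (IL-1ß replicate 3) to 72.3% (PRP lysate replicate 3) of this sum. It also holds genes that moved with treatment, such as CD163, so scaling to it is not a plain correction for macrophage content.

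**Figure D4:**
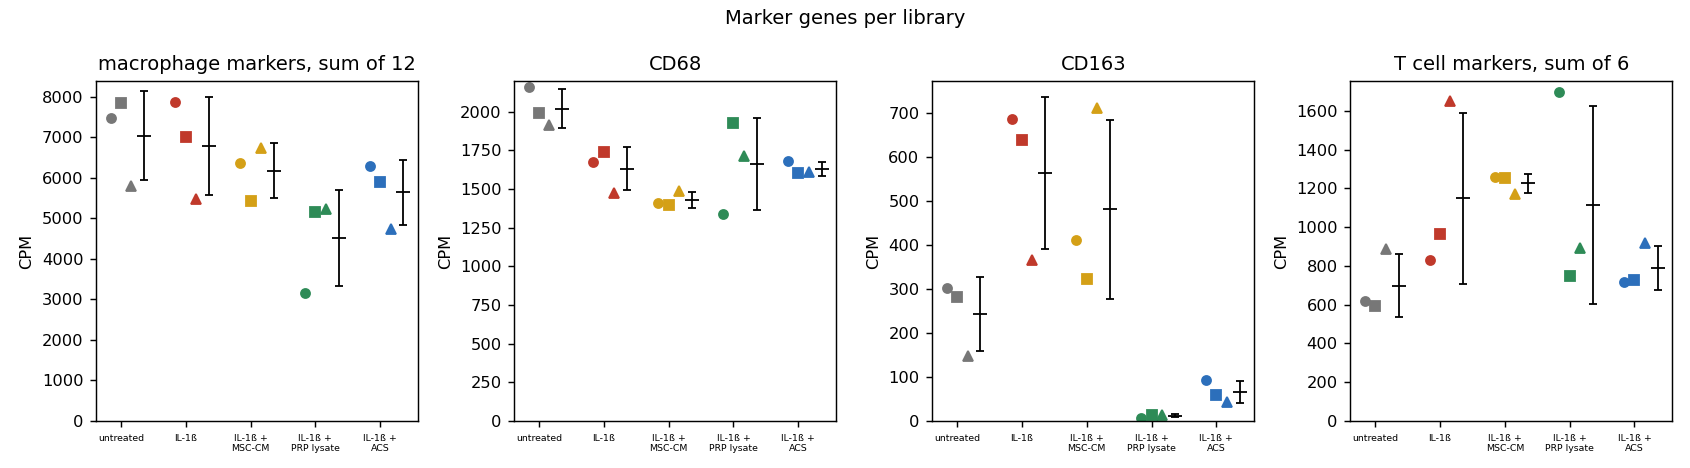
CPM per library (linear vertical axes from 0) of the summed macrophage markers, CD68, CD163 and the summed T cell markers in the 5 conditions, with mean and SD (n = 3) beside the libraries. CD163 was 7.34 to 13.4 CPM in the PRP lysate libraries and 365 to 685 CPM with IL-1ß alone, while CD68 overlapped between these groups.

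ACS lowered CFP among the 7 genes relative to IL-1ß treated controls. CFP was 2.66-fold lower by mean CPM, with a log2 difference of -1.35 (SE 0.24, 95% interval -1.87 to -0.83, adjusted p = 0.00899 by limma). This 1 call of 7 genes stands beside 0.980% of all genes called lower. Libraries of CFP, C1QC, C2 and C5AR1 did not overlap and were lower with ACS, as were those of 11.2% of all genes. C1QC differed by -0.89 (-1.43 to -0.36, adjusted p = 0.0727), C2 by -0.56 (-0.93 to -0.19, adjusted p = 0.1) and C5AR1 by -0.92 (-1.72 to -0.13, adjusted p = 0.191). C1QB differed by -0.21 (-1.08 to 0.66, adjusted p = 0.728), with overlapping libraries. CFB differed by -0.32 (adjusted p = 0.506) and C3AR1 by 0.10 (adjusted p = 0.916), which became -0.67 without IL-1ß replicate 3. Without that library, CFP differed by -1.07 (adjusted p = 0.0146).

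The call of CFP with ACS was lost without ACS replicate 3 (-1.25, adjusted p = 0.0505), with only the ACS and IL-1ß libraries in the fit (-1.35, adjusted p = 0.119) and relative to the summed macrophage markers (-1.09, adjusted p = 0.0508). C1QC was called without IL-1ß replicate 1 (-1.11, adjusted p = 0.0255), and without the 2 libraries that stood apart C5AR1 was called as well (-1.13, adjusted p = 0.00566). The macrophage marker sum was 4744 to 6279 CPM with ACS, and 2 of the 12 markers were called lower, among them CD163 at 64.6 ± 25.0 CPM (SD, n = 3). Summed neutrophil markers, which are nearly all CSF3R, were 530.1 to 759.3 CPM with ACS against 311.4 to 391.8 CPM with IL-1ß alone, and endothelial markers, mostly PECAM1, were 118.6 to 153.1 against 253 to 518 CPM. The part of these markers in the ACS result was not tested beyond the scaling to macrophage markers. Against untreated macrophages, 0 of the 7 genes were called with ACS by limma, edgeR or DESeq2 (0.370% of all genes by limma). C1QC (-0.87, adjusted p = 0.233), C2 (-0.55, adjusted p = 0.298), CFP (-0.90, adjusted p = 0.182) and C3AR1 did not overlap and were lower, as were 10.0% of all genes. Of the 12 macrophage markers, 10 were also lower without overlap, with 0 called and a median log2 difference of -0.58 over the 12. Relative to their sum, C1QC differed by -0.60, C2 by -0.24 and CFP by -0.59.

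PRP lysate also lay below untreated macrophages. C1QC differed by -1.87 (95% interval -2.41 to -1.34, adjusted p = 0.00122) and CFP by -1.25 (-1.77 to -0.73, adjusted p = 0.0142), and these 2 of 7 were called, where 1.33% of all genes were called lower. C2 passed the adjusted p at a log2 difference of -0.997 (adjusted p = 0.00705) but its fold change was just under 2. C1QB (-1.48, adjusted p = 0.0798), C3AR1 (-1.62, adjusted p = 0.237) and the 3 genes above had no overlap, as had 8.41% of all genes in that direction. The call of CFP was lost without untreated replicate 1 (adjusted p = 0.0919), PRP lysate replicate 1 (adjusted p = 0.0501) or PRP lysate replicate 3 (adjusted p = 0.0564). Relative to the summed macrophage markers, of which 3 of 12 were called lower here, CFP differed by -0.59 and was not called (adjusted p = 0.14). Other marker sums also moved, at 485 to 546 against 325 to 389 CPM for neutrophils (nearly all CSF3R). They were 63.1 to 103 against 185 to 321 CPM for endothelium (mostly PECAM1) and 12.2 to 41.4 against 3.62 to 5.86 CPM for platelets (mostly PPBP). The part of these markers was not tested. C3AR1 differed by -0.96 without PRP lysate replicate 1 (adjusted p = 0.604). C2 was called without untreated replicate 2 (-1.01, adjusted p = 0.0346), untreated replicate 3 (-1.11, adjusted p = 0.00959) or PRP lysate replicate 2 (-1.14, adjusted p = 0.00532). It no longer passed the adjusted p without untreated replicate 1 (-0.88, adjusted p = 0.0542) or with the replicate block (adjusted p = 0.0891). Relative to the summed macrophage markers, C2 differed by -0.35 (adjusted p = 0.21). Without the 2 libraries that stood apart, C1QB was also called (-1.73, adjusted p = 0.00521) and C3AR1 stayed under the fold threshold (-0.96, adjusted p = 0.0365).

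The OTs were then compared with each other. PRP lysate against MSC-CM gave calls for C1QC (-1.55, 95% interval -2.09 to -1.01, adjusted p = 0.00301) and CFP (-1.21, -1.73 to -0.70, adjusted p = 0.0111), both lower with PRP lysate. These were 2 of 7 genes, where 1.81% of all genes were called lower. C2 differed by -0.98 (adjusted p = 0.00522), C1QB by -1.26 (adjusted p = 0.114), CFB by -1.03 (adjusted p = 0.105), C3AR1 by -1.39 (adjusted p = 0.298) and C5AR1 by -0.69 (adjusted p = 0.457). In 5 genes, all but CFB and C5AR1, the PRP lysate libraries were lower without overlap, as in 12.1% of all genes. Without PRP lysate replicate 1, the difference was -0.73 for C3AR1 and -0.16 for C5AR1 (adjusted p = 0.579 and 0.841). Of the 12 macrophage markers, 3 were called lower with PRP lysate than with MSC-CM, and relative to their sum CFP differed by -0.73 and was not called (adjusted p = 0.214). Other marker sums also moved, at 485 to 546 against 268 to 431 CPM for neutrophils (nearly all CSF3R). They were 63.1 to 103 against 192 to 407 CPM for endothelium (mostly PECAM1) and 12.2 to 41.4 against 6.53 to 9.15 CPM for platelets (mostly PPBP). The part of these markers was not tested.

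Libraries of MSC-CM and PRP lysate with the same number deviated together, so the replicate number was also used as a block. This pairing was read from the same data, and no label states that these libraries share a donor. With the block over the 12 numbered libraries, CFP was no longer called (adjusted p = 0.0611) and 1 gene was. With the block over the PRP lysate and MSC-CM libraries alone, 3 were called, C1QC (adjusted p = 0.0173), CFP (adjusted p = 0.0117) and C3AR1 (adjusted p = 0.0446). Over all genes, 304 were called without a block, 171 with the block over 12 libraries and 406 with the block in these 2 groups. The call of CFP was also lost without MSC-CM replicate 1 (adjusted p = 0.0592) or replicate 3 (adjusted p = 0.0629). C2 was called without MSC-CM replicate 2 (-1.11, adjusted p = 0.00579) or PRP lysate replicate 2 (-1.12, adjusted p = 0.00464). CFB was called without PRP lysate replicate 1 (-1.497, adjusted p = 0.0017) but differed by -0.77 without PRP lysate replicate 3 (adjusted p = 0.352). Relative to the summed macrophage markers, C2 differed by -0.51 (adjusted p = 0.227) and CFB by -0.58 (adjusted p = 0.455). Without the 2 libraries that stood apart and without a block, C1QC, CFP, C1QB (-1.51, adjusted p = 0.00571) and CFB (-1.497, adjusted p = 0.000276) were called.

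ACS against MSC-CM gave 0 calls among the 7 genes by limma (1.23% of all genes), edgeR or DESeq2. The differences were -0.86 for CFP (adjusted p = 0.103), -0.78 for CFB (adjusted p = 0.296), -0.55 for C1QC (adjusted p = 0.355) and -0.53 for C2 (adjusted p = 0.158). Together with C3AR1 (-0.34, adjusted p = 0.892), these had lower ACS libraries without overlap, as had 22.2% of all genes. C5AR1 (-0.59) and C1QB (-0.27) overlapped. In this comparison all 6 T cell markers were lower with ACS without overlap, 0 of them called, and 2 of the 12 macrophage markers were called lower, CD163 (-2.86, adjusted p = 0.00275) and MERTK (-1.02, adjusted p = 0.0278). The part of these markers was not tested. PRP lysate against ACS gave 0 calls by limma (0.0946% of all genes), edgeR or DESeq2. C1QC differed by -0.9997 (95% interval -1.54 to -0.46, adjusted p = 0.263), C1QB by -0.99 (adjusted p = 0.842), C3AR1 by -1.06 (adjusted p = 0.842) and C2 by -0.45 (adjusted p = 0.779), all without overlap, as in 8.97% of all genes in that direction. The difference of C3AR1 was -0.39 without PRP lysate replicate 1. Of the 12 macrophage markers, CD163 (-2.39, adjusted p = 0.0347) and MERTK (-1.74, adjusted p = 0.00386) were called lower with PRP lysate than with ACS. Relative to the marker sum, the differences were -0.77 for C1QC, -0.75 for C1QB, -0.75 for C3AR1, -0.11 for C2 and -0.001 for CFP. CFP differed by -0.35 (-0.87 to 0.17, adjusted p = 0.842), an interval that leaves room for a difference of almost 2-fold between the plasma and the serum product.

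The wider complement system was followed in 47 further genes (initiating proteases, lectins, terminal components, regulators and receptors), of which 31 had values and 18 were tested. PRP lysate lowered 2 of the 18 relative to IL-1ß alone, beside 2.02% of all genes, and the median log2 difference was -0.26 for the 18 and 0.11 for all genes, with 13 of 18 below 0. C1R, the first protease of the C1 complex, measured 17.9, 28.0 and 18.1 CPM with PRP lysate and 55.3, 54.5 and 54.5 CPM in the IL-1ß controls, with a log2 difference of -1.35 (adjusted p = 0.00203). C4BPA, the alpha chain of C4b-binding protein, which inhibits the classical convertase, measured 4.57, 13.5 and 15.1 against 84.6, 74.7 and 47.2 CPM, a difference of -2.64 (adjusted p = 0.0105). An activator and an inhibitor of the classical arm thus both fell. C1S, the protease that C1r activates, measured 7.52, 11.7 and 9.15 against 19.6, 20.7 and 15.7 CPM, a difference of -0.92 (adjusted p = 0.00968) under the fold threshold. With only the PRP lysate and IL-1ß libraries fitted, C1R (adjusted p = 0.0988) and C4BPA (adjusted p = 0.094) were not called. C1R differed by -0.76 relative to the summed macrophage markers (adjusted p = 0.0426), under the fold threshold. C1S was called without IL-1ß replicate 3 (-1.04, adjusted p = 0.00502) or PRP lysate replicate 2 (-1.07, adjusted p = 0.00787).

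Against MSC-CM, PRP lysate lowered C1R (-1.39, adjusted p = 0.00208) and C1S (-1.25, adjusted p = 0.00156), where 1.81% of all genes were called lower. Against untreated macrophages it lowered C1R (-1.20, adjusted p = 0.00782) and C1S (-1.01, adjusted p = 0.00986), where 1.33% were. With only the groups compared in the fit, C1R was not called against MSC-CM (adjusted p = 0.053), nor C1R (0.0965) or C1S (0.119) against untreated macrophages. The replicate block also ended both calls against untreated macrophages (adjusted p = 0.0918 and 0.109). Relative to the summed macrophage markers, neither gene was called in these comparisons, with differences of -0.92 and -0.81 against MSC-CM and -0.56 and -0.39 against untreated macrophages. The call of C1R against untreated macrophages was lost without untreated replicate 1 (adjusted p = 0.0582). That of C1S was lost without untreated replicate 1 (-0.93) or 2 (-0.99), or PRP lysate replicate 1 (-0.87) or 3 (-0.998). ACS had 0 of the 18 called against IL-1ß by limma, where 0.980% of all genes were called lower. C4BPA measured 24.7, 16.9 and 8.96 CPM with ACS, a difference of -2.03 (adjusted p = 0.0557). It was called under 5 alternatives. These were removal of the 2 libraries that stood apart (-2.28, adjusted p = 0.0142), scaling to the summed macrophage markers (-1.78, adjusted p = 0.0132), RLE or TMM factors, and DESeq2. C1S measured 20.8, 20.2 and 19.8 CPM with ACS, a difference of 0.12 from IL-1ß alone (adjusted p = 0.667). CFI, the protease that inactivates C3b and C4b, was called higher with IL-1ß plus MSC-CM than in untreated macrophages, at 6.14, 6.58 and 5.24 against 1.17, 1.85 and 2.07 CPM (1.38, adjusted p = 0.0189). This call was lost when any 1 of the 6 libraries was left out, untreated or MSC-CM replicate 1, 2 or 3 (1.23 to 1.48, adjusted p = 0.0539 to 0.098), and relative to the summed macrophage markers (1.47, adjusted p = 0.154). All 6 T cell markers were also higher with MSC-CM than in untreated macrophages without overlap (sums of 1170 to 1259 against 595 to 885 CPM), as were 21.9% of all genes. The median log2 difference of these markers was 0.83 with 0 called, and their part in the CFI result was not tested. CFI also measured 3.95, 4.01 and 6.43 CPM with IL-1ß alone, where it differed from untreated macrophages by 1.09 (adjusted p = 0.0753). MSC-CM against IL-1ß alone gave a CFI difference of 0.29 (adjusted p = 0.705), with overlapping libraries.

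**Figure D5:**
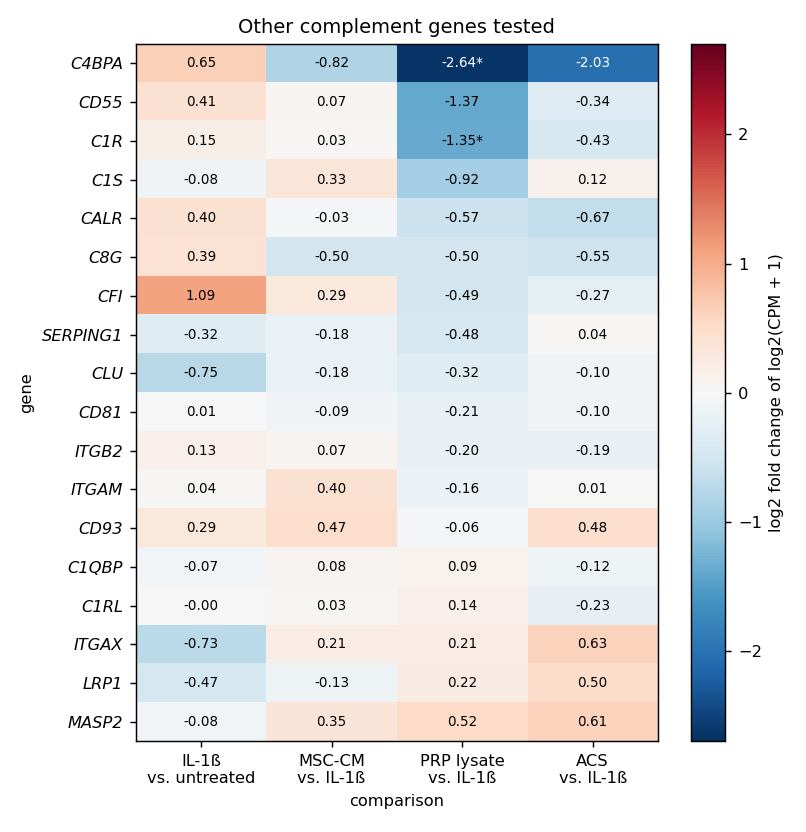
Log2 difference (color scale) of the 18 tested genes of the wider complement list (rows) in 4 comparisons (columns), with an asterisk where a gene passed the adjusted p and the fold threshold. C1R at -1.35 and C4BPA at -2.64 carry the asterisks for PRP lysate against IL-1ß, and no gene carries an asterisk for ACS against IL-1ß.

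Transcription factors that act on complement genes or in macrophages were described from a list of 14, all of them tested. PRP lysate lowered 1 and raised 1 relative to IL-1ß alone, where 359 of all 11628 genes were called and 2.02% were called lower. CEBPD, an acute phase factor, measured 8.38, 5.59 and 6.02 CPM with PRP lysate against 49.7, 50.0 and 42.6 CPM in the IL-1ß controls (-2.67, adjusted p = 9.87e-06). IRF8, a myeloid interferon response factor, measured 697, 698 and 517 against 308, 289 and 220 CPM (1.22, adjusted p = 0.00271), a call that was lost with only these groups fitted (adjusted p = 0.0904). ACS lowered CEBPD (-2.40, adjusted p = 7.72e-05) and raised IRF8 (1.37, adjusted p = 0.00317). CEBPD was the factor that IL-1ß raised over untreated macrophages (2.26, adjusted p = 0.000228), where 0.292% of all genes were called. That call was lost with only these groups fitted (adjusted p = 0.0657). With MSC-CM, CEBPD was called higher than in untreated macrophages (2.06, adjusted p = 0.000452). Against MSC-CM, PRP lysate lowered CEBPD (-2.47) and raised IRF8 (1.10, with the replicate block adjusted p = 0.0602), and ACS lowered CEBPD (-2.20) and raised IRF8 (1.24). The part of these factors in the complement results was not tested.

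Likeness among the 7 genes over the 15 libraries was described by Pearson's r of log2(CPM + 1), which the libraries' shared groups and composition also set. C1QC went with C2 (r = 0.92), CFP (r = 0.90) and C1QB (r = 0.81), and C2 with CFP (r = 0.86). The receptors C3AR1 and C5AR1 had r = 0.70 with each other, which was close to their r with C2 (0.65 for C3AR1 and 0.71 for C5AR1) and to that of C5AR1 with CFP (0.62). CFB had r = 0.46 with C1QB, 0.43 with C1QC, 0.43 with CFP and 0.39 with C2, against -0.11 with C3AR1 and -0.12 with C5AR1. Among all other named genes, those most like C1QC were ACP2, a lysosomal phosphatase (r = 0.95), FTH1, the ferritin heavy chain (r = 0.95), and NR1H3, the oxysterol receptor LXR alpha (r = 0.95). NR1H3 measured 95.2, 123 and 93.0 CPM with PRP lysate and 163, 189 and 160 CPM with IL-1ß alone, a difference of -0.72 (adjusted p = 0.00605) under the fold threshold.

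The nearest patterns to CFP were FCGRT, the neonatal Fc receptor, MECR and CDA (r = 0.98, 0.98 and 0.98). Those nearest to C2 were MPP1, MILR1 and GSDME (r = 0.97 each), and those nearest to C1QB were HLA-DMA, which loads peptides onto class II molecules (r = 0.91), TMC4 (r = 0.89) and PLEKHA4 (r = 0.88). C3AR1 was most like ARHGAP18 (r = 0.98), PIK3AP1 (r = 0.97) and CYFIP1 (r = 0.97), and C5AR1 most like PCOLCE2 (r = 0.94), CD5L, a protein secreted by macrophages (r = 0.94), and FEZ2 (r = 0.94). CFB was most like MICAL1 (r = 0.93), YPEL3 (r = 0.92) and SREBF1, a sterol-responsive transcription factor (r = 0.92).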

How the data were processed

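Per the study's methods, the authors trimmed paired reads at a Phred score of 20, removed adapters with cutadapt, aligned them with STAR 2.7.3 to EquCab3.0, counted them per Ensembl gene with HTSeq and deposited CPM from Partek Flow for 16932 protein-coding genes. The strand setting is not given in the sources used here, so overlapping genes and paralogs are uncertain. All columns were matched to samples by header, and the ACS libraries were numbered in deposited order.

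Limma with an intensity trend was fitted to log2(CPM + 1) of all 15 libraries, with 5 conditions and no block, for genes whose mean level was 1 CPM or higher. Whole reads were recovered by dividing by the value of 1 read in each library, and 99.7% of values lay within 0.1 reads of a whole number. On these reads edgeR, testing 13671 genes, called 388 genes for PRP lysate against IL-1ß and 243 for ACS, and limma called 359 and 257. Other alternatives were DESeq2, RLE and TMM factors, a pseudocount of 0.1, no filter, no fold threshold, 2-group fits, a replicate block and each library left out. Removal of the 2 libraries that stood apart, scaling to macrophage markers and the block within PRP lysate and MSC-CM alone were chosen after seeing the data.

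The labels number the MSC-CM, PRP lysate, IL-1ß and untreated libraries. Deviations from the group means correlated at 0.63, 0.26 and 0.42 for same-numbered PRP lysate and MSC-CM libraries, all above 0.1. At least 1 correlation was negative in each other comparison of numbered groups. The numbers were therefore taken to pair PRP lysate with MSC-CM alone, which these data cannot settle. Correlations also reached 0.59 between PRP lysate and untreated libraries and 0.56 between MSC-CM and untreated libraries, and no label states shared donors.

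The complement genes and all lists were chosen with earlier results of these data known. Named genes are all 7 with values, the called genes of the wider lists, and the 3 genes with the highest r to each. The limma, edgeR and DESeq2 fits without a block were run on simulated libraries. They were scored for PRP lysate against IL-1ß and IL-1ß against untreated macrophages. The simulation gave every gene the same spread setting and held no library that stood apart. Other alternatives were not simulated. Software was Python 3.11.15 and R 4.3.3 with DESeq2 1.42.0, limma 3.58.1 and edgeR 4.0.16. The result of 1 listed gene is not reported here. No sequences were used here.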

Additional observations from a re-analysis of the deposited data

How the results depend on the processing

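With 3 libraries a group, limma here rests on the spread shared by all 5 conditions. Of 1089 alternative values of 69 named differences (50 of the 7 complement genes, and 19 of C1R, C1S, C4BPA, CFI, CEBPD and IRF8), 991 kept direction and side of the threshold, 53 lost a call, 36 gained a call and 9 changed sign, all of C3AR1. C3AR1 became 0.10 for IL-1ß against untreated and -0.33 for MSC-CM against IL-1ß without the 2 libraries that stood apart, and ranged from -1.21 to 0.10 and from -0.33 to 0.98 without single libraries. For ACS against IL-1ß it became -0.021 with RLE factors, -0.30 with edgeR, -0.30 with DESeq2 and -0.67 without both libraries that stood apart, and ranged from -0.67 to 0.64 without single libraries. The number of the 7 genes called for PRP lysate against IL-1ß was 3, but 4 with DESeq2, 2 relative to macrophage markers, 2 to 3 without single libraries and 0 with only those groups fitted. For ACS against IL-1ß it was 1, but 3 with DESeq2, 0 with only those groups, 2 without both libraries that stood apart, 0 relative to macrophage markers and 0 to 2 without single libraries. For PRP lysate against MSC-CM it was 2, but 3 with a pseudocount of 0.1, no fold threshold or the block in these groups alone, 1 with RLE factors, 1 with the replicate block over 12 libraries, 4 without both libraries that stood apart, 1 relative to macrophage markers and 1 to 3 without single libraries. For PRP lysate against untreated it was 2, but 3 with edgeR, RLE or TMM factors, a pseudocount of 0.1 or no fold threshold, 4 with DESeq2, 3 without both libraries that stood apart, 1 with the replicate block, 1 relative to macrophage markers and 1 to 3 without single libraries. The replicate block over the numbered libraries also ended the calls of C4BPA (PRP lysate against IL-1ß, adjusted p = 0.067), CFI (MSC-CM against untreated, 0.152), IRF8 (PRP lysate against MSC-CM, 0.0602) and C1R and C1S (PRP lysate against untreated, 0.0918 and 0.109), and changed no other call. With only the groups compared in the fit, C1R for PRP lysate against MSC-CM (adjusted p = 0.053) and untreated (0.0965), C1S for PRP lysate against untreated (0.119) and CEBPD for IL-1ß against untreated (0.0657) also lost their calls, as did IRF8 for ACS against MSC-CM relative to macrophage markers (0.0612). Between other groups the shared numbers were not taken as pairs. With the block, CFP for PRP lysate against untreated had an adjusted p of 0.0856. The cause of these changes was not tested.

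RLE factors moved the median log2 difference of all genes from 0.16 to 0.00 for MSC-CM against IL-1ß and from 0.13 to 0.01 for ACS against IL-1ß. DESeq2 called more genes than limma in all, 684 against 359 for PRP lysate and 574 against 257 for ACS against IL-1ß, 167 against 34 for IL-1ß against untreated, and 2 against 0 for MSC-CM against IL-1ß. For the other comparisons in the order PRP lysate, ACS and MSC-CM against untreated, PRP lysate and ACS against MSC-CM, and PRP lysate against ACS, DESeq2 called 319, 116, 171, 484, 292 and 57 and limma 186, 43, 77, 304, 143 and 11. Scaling to macrophage markers called 2036 for PRP lysate and 665 for ACS against IL-1ß. The replicate block called 197, 6 and 0 for PRP lysate, IL-1ß against untreated and MSC-CM.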
